A study of Mus musculus with 4 samples.

Results

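miR-219 and miR-338 are among the microRNAs (miRNAs) most closely tied to oligodendrocytes, the cells that wrap axons of the brain in myelin. They were followed here in the medial prefrontal cortex of mice under chronic unpredictable mild stress (CUMS) and of control mice. Members were the entries of the deposited miRNA table whose name begins with mmu-miR-219 or is an arm of miR-338, and 9 of the 1038 miRNAs in the table met this rule. Of these, 5 are arms of the hairpins Mir338, Mir219a-1 and Mir219a-2, namely mmu-miR-338-3p, mmu-miR-338-5p, mmu-miR-219a-2-3p, mmu-miR-219a-1-3p and mmu-miR-219a-5p. The other 4 come from Mir219b and Mir219c, which are annotated on the strand opposite to the Mir219a hairpins. A filter of at least 5 reads in at least 1 library was passed by 7 of the 9, including all 5 arms of Mir338 and Mir219a.

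All animals were young male mice, labelled C57BL/6 and named C57BL/6J in the methods of the study, and small RNA was sequenced from the medial prefrontal cortex of both hemispheres in 2 libraries per group. The CUMS group went through 3 weeks of social isolation, altered cages, restraint, noise, strobe light and disturbed day and night cycles, and entered the study only after showing depression-like behavior in every test used. The control group was not stressed. The cortex is a mixed tissue, so fewer oligodendrocytes and less of a miRNA per oligodendrocyte cannot be told apart in these libraries.

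Oligodendrocytes arise from dividing precursors that leave the cell cycle, extend processes and then make myelin. miR-219 and miR-338 are switched on as precursors mature, and they hold down messages that keep precursors dividing, such as that of the growth factor receptor Pdgfra and those of the transcription factors Sox6, Foxj3 and Zbtb18. A miRNA finds its targets mainly through its seed, bases 2 to 8 from the 5′ end. Each hairpin is cut into a 5p and a 3p arm, and often one arm is kept at a far higher level than the other.

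The mature sequences are shown because the seed sets which messages an arm can pair with, and because the arms of the same hairpin have different seeds. RefSeq, on GRCm38.p6, held a mature sequence for 8 of the 9 members, and these had 8 different seeds. The member without one was mmu-miR-219a-2-3p, so its seed was not examined. No other miRNA with a RefSeq mature sequence had any of these seeds, and such a sequence was found for 884 of the 1038 miRNAs. Seeds are in capitals.
mmu-miR-338-3p: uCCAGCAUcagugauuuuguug
mmu-miR-338-5p: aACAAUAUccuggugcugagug
mmu-miR-219a-5p: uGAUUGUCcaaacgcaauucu
mmu-miR-219a-1-3p: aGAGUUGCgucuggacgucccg
mmu-miR-219b-3p: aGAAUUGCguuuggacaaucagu
mmu-miR-219c-3p: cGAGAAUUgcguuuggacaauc

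The hairpins show where the arms lie, with the arms listed by RefSeq in capitals. mmu-miR-219a-2-3p is not listed there, so it is not in capitals in Mir219a-2. Mir338 is on the minus strand at chr11:120014765-120014862 and lies in an intron of Aatk, a gene for a neural kinase read from the same strand (GENCODE M21). Mir219a-2 is on the minus strand at chr2:29845631-29845727, between genes, with Urm1 as the nearest coding gene at 629 bp. Mir219a-1 is on the minus strand at chr17:34024983-34025092, also between genes and 303 bp from Ring1.
Mir338: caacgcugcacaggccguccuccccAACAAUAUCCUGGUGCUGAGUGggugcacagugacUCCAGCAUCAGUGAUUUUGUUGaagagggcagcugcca
Mir219a-2: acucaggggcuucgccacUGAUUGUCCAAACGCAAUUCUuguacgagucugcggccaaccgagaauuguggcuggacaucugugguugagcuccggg
Mir219a-1: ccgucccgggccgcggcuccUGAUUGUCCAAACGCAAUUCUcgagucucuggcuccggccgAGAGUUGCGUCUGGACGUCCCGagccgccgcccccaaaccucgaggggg
mmu-miR-219a-5p is the same molecule from either Mir219a hairpin, so its reads cannot be divided between the loci. The longest stretch shared by these hairpins, CUGAUUGUCCAAACGCAAUUCU, is that arm with 1 base before it, whereas mmu-miR-219a-1-3p and mmu-miR-219a-2-3p each belong to 1 locus.

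The deposited values are group means of normalized reads, that is reads divided by the size factor of the library, and from them the read count of every library was recovered. Within each group the letters a and b name the libraries, because the means do not tell which replicate is which. Control library a held 10533646 miRNA reads and control library b 10783592, while CUMS library a held 10427625 and CUMS library b 9589323. A floor of 3 reads corresponded to between 2.78e-05% and 3.13e-05% of a library, and intervals and floors cover counting error only.

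Control library b stood apart from the other libraries. The 14 miRNAs of the clusters around miR-182-5p and the miR-200 family, which are typical of sensory and epithelial cells, took 9.32% of its reads, against 0.0393% in control library a, 0.0503% in CUMS library a and 0.0722% in CUMS library b. The log2 ratios of the arms and the counts of the lists of marker miRNAs are therefore also given without it. Neuronal miRNAs were abundant in every library. miR-124-3p, a miRNA typical of neurons, reached 25922 and 23143 normalized reads in control mice, against 29393 and 35217 in CUMS mice.

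mmu-miR-338-3p was the most abundant member, with 4453 and 4880 control reads against 4015 and 3960 under CUMS. On the normalized scale the values were 4356 and 4878 against 3780.4 and 4196. Both CUMS values lay below both control values. The group means were 4617 ± 369 (SD, n = 2) in control and 3988 ± 294 (SD, n = 2) in CUMS, a log2 ratio of -0.21, and the CUMS mean was 86.4% of the control mean. The log2 ratio was -0.13 without control library b and -0.14 without CUMS library a.

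mmu-miR-219a-2-3p, the arm that marks the Mir219a-2 locus, stood at 3337 and 3295 normalized reads in control, against 2231 and 2958 under CUMS. The control libraries were nearly equal, both CUMS libraries were lower, and CUMS library a was the lowest. The group means were 3316 ± 30.2 (SD, n = 2) and 2594 ± 514 (SD, n = 2), and the CUMS mean was 78.2% of the control mean. With all libraries, its log2 ratio of -0.35 was the furthest from 0 among the 5 arms, and it was -0.36 without control library b. It was -0.16 without CUMS library a and -0.57 without CUMS library b. The arm furthest from 0 was mmu-miR-219a-1-3p without CUMS library a, at 0.47, and mmu-miR-338-5p without control library a, at -0.37.

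mmu-miR-338-5p, the less abundant arm of Mir338, stood at 664 and 874 normalized reads in control, against 704 and 645 under CUMS. The groups overlapped, since both CUMS values were close to that of control library a. The means were 769 ± 148 (SD, n = 2) and 675 ± 41.7 (SD, n = 2), with a log2 ratio of -0.19. Without control library b, the log2 ratio was 0.023, and the log2 fold change of edgeR was -0.0021, so the lower mean of this arm in CUMS rested on that library. The log2 ratio was -0.37 without control library a.

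mmu-miR-219a-5p, the arm with the seed that is matched in Pdgfra and Sox6, was less abundant. Its control values were 194 and 192 normalized reads, and its CUMS values were 151 and 184. Both CUMS libraries were lower, CUMS library b by only a few reads, and the log2 ratio was -0.20, or -0.21 without control library b. The means were 193 ± 1.24 (SD, n = 2) and 168 ± 23.8 (SD, n = 2). The log2 ratio was -0.065 without CUMS library a and -0.36 without CUMS library b. In RPM, which scales reads to the total of the library, the groups overlapped, with 18.8 and 17.8 in control and 15.3 and 18.1 under CUMS. With the 10 most abundant miRNAs and the 14 cluster miRNAs taken out of the totals, they again did not overlap.

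mmu-miR-219a-1-3p, the arm that marks the Mir219a-1 locus, was counted in 31 and 37 control reads and in 28 and 44 reads under CUMS. The CUMS libraries enclosed the control libraries, with 26.4 and 46.6 normalized reads against 30.3 and 37.0. The means were 33.7 ± 4.71 (SD, n = 2) and 36.5 ± 14.3 (SD, n = 2), with a log2 ratio of 0.12 that was 0.27 without control library b, -0.019 without control library a, 0.47 without CUMS library a and -0.35 without CUMS library b.

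**Figure D1:**
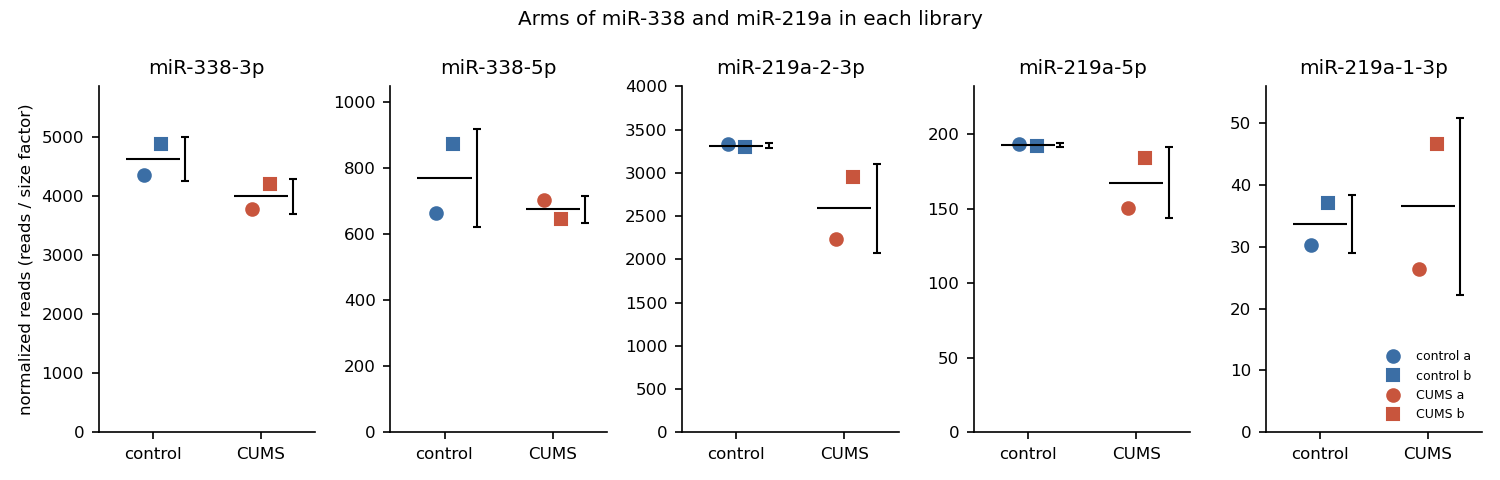
Normalized reads (y axis, reads divided by the size factor, from 0) of the 5 arms in each control library (blue) and each CUMS library (red), with the group mean as a line and the SD (n = 2) as a bar beside it. Both CUMS libraries lie below both control libraries for miR-338-3p, miR-219a-2-3p and, on this scale and in RPM without 24 miRNAs but not in RPM of all reads, miR-219a-5p, and the groups overlap for miR-338-5p and miR-219a-1-3p.

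Among all 1038 miRNAs ordered by control mean, mmu-miR-338-3p ranked 99 and mmu-miR-219a-2-3p ranked 115. They were followed by mmu-miR-338-5p at rank 186, mmu-miR-219a-5p at rank 267 and mmu-miR-219a-1-3p at rank 405. The order of the 5 arms was the same in all 4 libraries. In both groups, the ranges of mean ± SD of neighbors in this order did not meet.

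The spread between the 2 libraries of a group is given beside the spread that counting alone gives. For mmu-miR-219a-2-3p the coefficient of variation was 0.912% in control, where counting alone gives 1.73%, and 19.8% in CUMS, where counting gives 1.97%. For mmu-miR-338-3p it was 8.00% in control and 7.36% in CUMS, against 1.46% and 1.59% from counting. For mmu-miR-338-5p it was 19.3% in control and 6.19% in CUMS, against 3.59% and 3.85%. For mmu-miR-219a-5p it was 0.642% in control and 14.2% in CUMS, against 7.16% and 7.75%. For mmu-miR-219a-1-3p it was 14.0% in control and 39.2% in CUMS, against 17.2% and 16.7%.

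The comparison between CUMS and control asks whether stress went along with another level of these miRNAs. Of the 5 arms, 4 had a lower mean in CUMS and 1, mmu-miR-219a-1-3p, had a higher mean. Over the 719 miRNAs past the filter, 52.3% had a higher mean in CUMS, and over the 282 miRNAs with at least 100 reads in every library 55.7% did. Without control library b, 2 of the 5 arms had a higher mean (1 in edgeR, where mmu-miR-338-5p was at -0.0021), beside 379 of the 719 miRNAs, and without control library a or CUMS library b none had. The median log2 ratio of the 5 arms was -0.20, beside 0.021 over the 719 miRNAs.

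In 3 of the 5 arms the control libraries exceeded the CUMS libraries with no overlap, whereas this held for 17.1% of the 719 miRNAs and for 17.0% of the 282 abundant ones. The opposite order, CUMS above control with no overlap, held for 16.7% of the 719 and for 17.0% of the 282, and for none of the 5 arms. In RPM, 2 of the 5 arms, mmu-miR-338-3p and mmu-miR-219a-2-3p, had both CUMS libraries below both control libraries, against 11.8% of the 719 miRNAs. With those 24 miRNAs taken out of the totals, it was again 3 of the 5, against 16.3% of the 719. The arms share hairpins, so they are not independent observations. Of the 282 abundant miRNAs, 24 had a log2 ratio at or below that of mmu-miR-219a-2-3p (8.51%), and 52 had one at or below that of mmu-miR-338-3p (18.4%).

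None of the arms passed the test across the 719 miRNAs past the filter. With edgeR's quasi-likelihood test and Benjamini-Hochberg adjustment on the recovered reads, 0 of 719 miRNAs (0%) had an adjusted p under 0.05, and 30 (4.17%) had an unadjusted p under 0.05. DESeq2 also called 0 miRNAs, with 24 at an unadjusted p under 0.05, and none of the 5 arms was among those of either tool. In edgeR the unadjusted p was 0.0871 for mmu-miR-219a-2-3p and 0.173 for mmu-miR-338-3p, and the adjusted p was 0.849 for both. Without CUMS library b, mmu-miR-219a-2-3p was among the 20 of 691 miRNAs (2.89%) with an unadjusted p under 0.05, at 0.0285, and its adjusted p was 0.786. Over the 9 edgeR and DESeq2 fits that were run, the adjusted p of the 5 arms ranged from 0.660 to 0.999.

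The intervals around the differences were wide. In DESeq2 the log2 fold change of mmu-miR-219a-2-3p was -0.36 with a standard error of 0.20 and a 95% interval from -0.76 to 0.040. For mmu-miR-338-3p it was -0.22 with a standard error of 0.18 and an interval from -0.58 to 0.14. The interval of mmu-miR-219a-5p ran from -0.83 to 0.42 and that of mmu-miR-338-5p from -0.65 to 0.26. For mmu-miR-219a-1-3p, with few reads, it ran from -1.16 to 1.37.

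**Figure D2:**
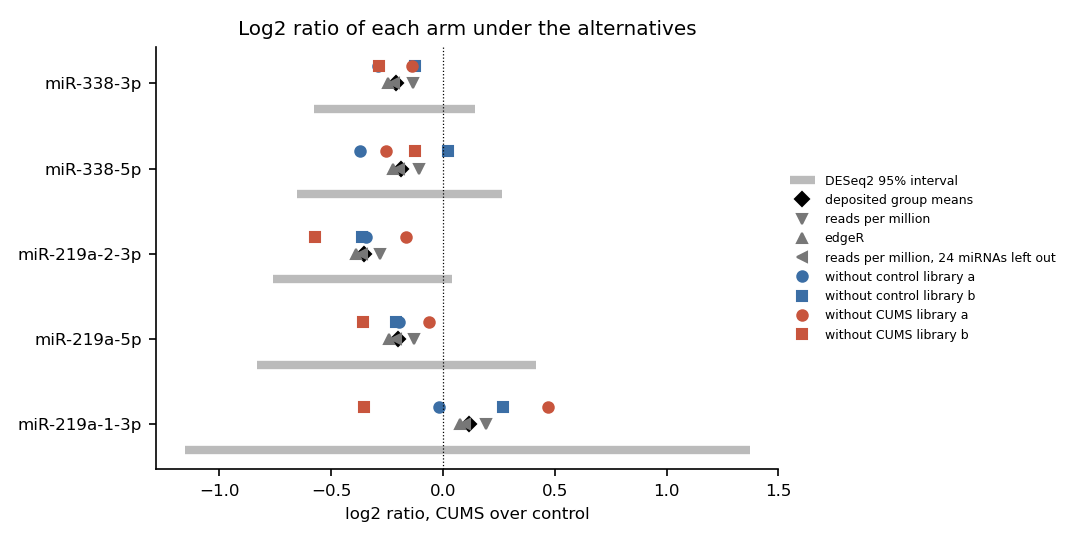
Log2 ratio of CUMS over control (x axis) for each of the 5 arms (y axis), from the deposited group means (black), other scalings (grey) and with each library left out (blue for control, red for CUMS), above the 95% interval of the DESeq2 fold change (grey bar). All 5 intervals include 0, and leaving out control library b moves miR-338-5p to 0.023.

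**Figure D3:**
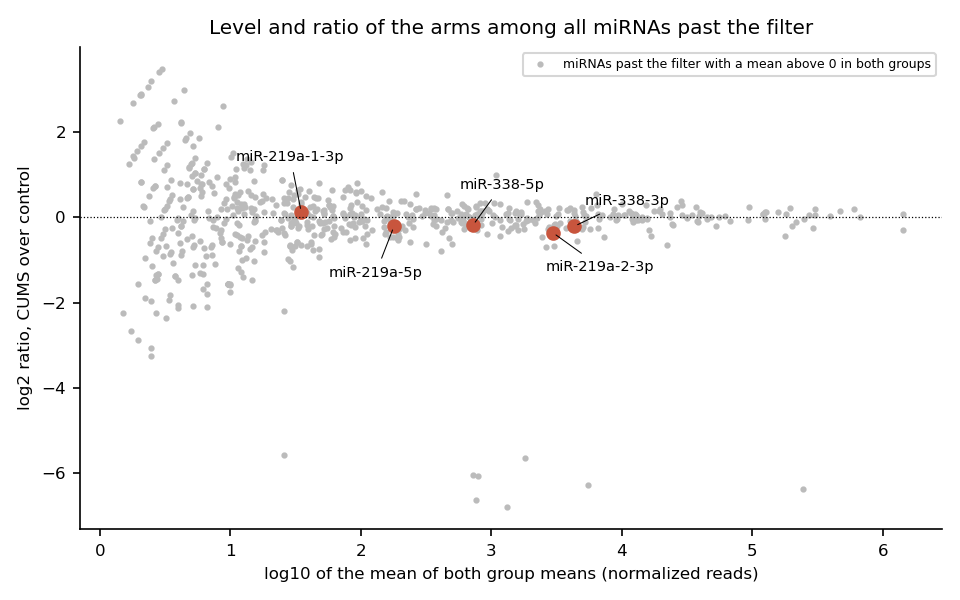
Log2 ratio of CUMS over control (y axis) against the log10 of the mean level in normalized reads (x axis) for miRNAs past the filter with a mean above 0 in both groups (grey) and the 5 arms (red). The arms lie inside the cloud of miRNAs of like level, with log2 ratios from -0.35 to 0.12, and the points near -6 are miRNAs of the clusters that were high in control library b.

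The arms were also set beside miRNAs of like level. The 16 miRNAs nearest in level, 2 above and 2 below each of the 4 abundant arms, had log2 ratios with a median of -0.073, and 9 of them had a lower mean in CUMS. The lowest was that of miR-200a-3p, a miRNA of the clusters that were high in control library b, and the highest was 0.20. For 6 of the 16, the higher CUMS library was still under the lower control library, which held for 17.0% of the 282 abundant miRNAs. Close to mmu-miR-219a-2-3p, miR-10a-5p had a log2 ratio of -0.67 and miR-328-3p one of 0.20. Close to mmu-miR-338-3p, miR-30c-5p had a log2 ratio of 0.040 and miR-301a-3p one of -0.11.

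A ratio between arms within a library does not depend on how libraries are scaled, although the ease with which each sequence is ligated remains in it. mmu-miR-338-3p exceeded mmu-miR-338-5p by a ratio of 6.56 and 5.58 in control mice, against 5.37 and 6.50 in CUMS mice. The groups overlapped, with means of 6.07 ± 0.689 (SD, n = 2) and 5.94 ± 0.802 (SD, n = 2). The 3p arm of Mir338 was therefore the main arm in all 4 libraries, and no difference between the groups beyond their spread was seen.

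The 3p arm of Mir219a-2 far exceeded that of Mir219a-1. The ratio of mmu-miR-219a-2-3p to mmu-miR-219a-1-3p was 110.1 and 89.1 in control mice, against 84.6 and 63.5 in CUMS mice. Both CUMS ratios were below both control ratios, with means of 99.6 ± 14.8 (SD, n = 2) and 74.0 ± 14.96 (SD, n = 2), but the second arm had only 28 to 44 reads. The log2 difference was -0.43, and it ran from -0.64 to -0.23 with each library left out.

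mmu-miR-219a-2-3p also exceeded mmu-miR-219a-5p, the arm that both loci make. The control ratios were 17.23 and 17.17, the CUMS ratios were 14.8 and 16.05, and the groups did not overlap. The means were 17.2 ± 0.0464 (SD, n = 2) and 15.4 ± 0.877 (SD, n = 2), but mmu-miR-219a-5p had only 160 to 198 reads, for which counting alone gives a coefficient of variation of 7.16% in control and 7.75% in CUMS. The log2 difference was -0.16, and it was -0.10 without CUMS library a. The ratio of mmu-miR-338-3p to mmu-miR-219a-2-3p was 1.31 and 1.48 in control mice, against 1.69 and 1.42 in CUMS mice, and here the groups overlapped, with a log2 difference of 0.16 that ran from 0.029 to 0.29 with each library left out.

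**Figure D4:**
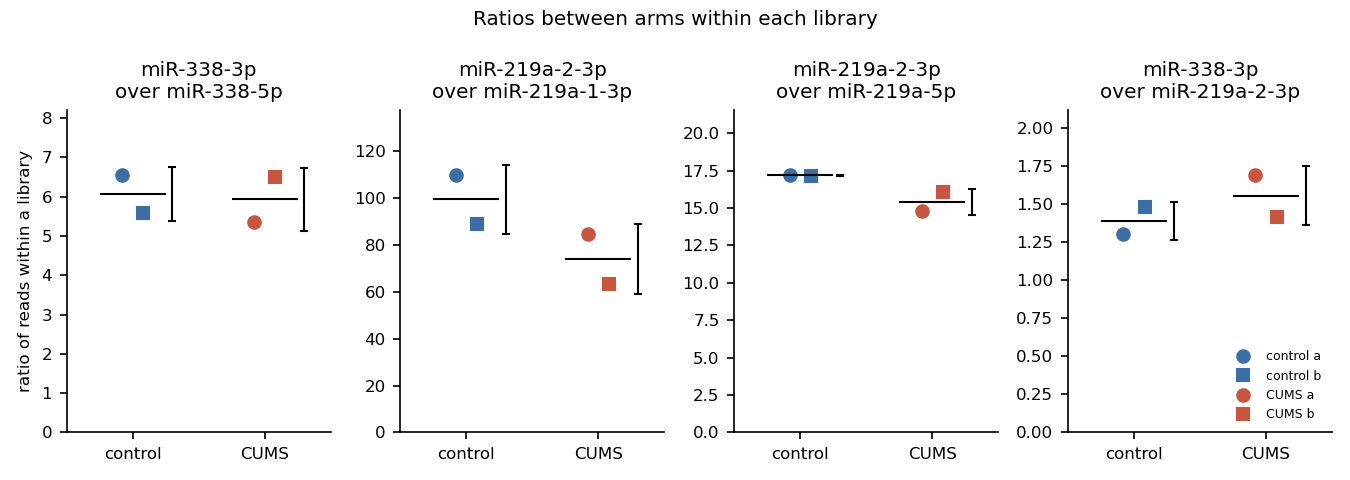
Ratio of reads between arms within each library (y axes, from 0) for the control libraries (blue) and the CUMS libraries (red), with the group mean as a line and the SD (n = 2) as a bar. The ratios of miR-219a-2-3p to the other miR-219a arms are lower in both CUMS libraries, with means of 17.2 and 15.4 over miR-219a-5p, and the ratio of the miR-338 arms overlaps between the groups.

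Summed, the 5 arms took 0.0833% of the miRNA reads in control library a (exact 95% binomial interval 0.0816% to 0.0850%) and 0.0860% in control library b (0.0843% to 0.0878%). They took 0.0702% in CUMS library a (0.0686% to 0.0718%) and 0.0790% in CUMS library b (0.0773% to 0.0808%). Both CUMS shares were below both control shares, an order that held for 11.8% of the 719 miRNAs in RPM. The CUMS libraries differed from each other by more than counting error. The mean shares were 0.0847% ± 0.00195 (SD, n = 2) and 0.0746% ± 0.00625 (SD, n = 2), a log2 ratio of -0.18 that was -0.099 without CUMS library a and -0.27 without CUMS library b. An exact two-sided permutation test gave p = 0.333, the smallest value that 2 libraries against 2 allow.

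By family, the share of the Mir338 arms was 0.0487% and 0.0534% in control mice, against 0.0457% and 0.0476% in CUMS mice. For the miR-219a arms it was 0.0346% and 0.0327%, against 0.0245% and 0.0314%. In both families each CUMS library was below each control library, an order that held for 11.8% of the 719 miRNAs in RPM. The gap was small for CUMS library b, whose exact 95% binomial interval met that of a control library. For Mir338 it was 0.0463% to 0.0490%, against 0.0474% to 0.0501% in control library a. For miR-219a it was 0.0303% to 0.0325%, against 0.0316% to 0.0338% in control library b. mmu-miR-338-3p and mmu-miR-219a-2-3p together made up most of the sum, with 50.8% and 38.9% of it in control library a and 54.8% and 32.4% in CUMS library a.

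The members on the opposite strands were close to absent. mmu-miR-219b-3p lies across all 21 bases of mmu-miR-219a-5p on the other strand of the Mir219a-2 locus and was counted in 8 and 0 control reads and in 1 and 2 reads under CUMS. mmu-miR-219c-3p overlaps the same arm by 20 bases at the Mir219a-1 locus and was counted in 6 and 4 control reads and in 5 and 0 reads under CUMS. These members share the stretch AGAAUUGCGUUUGGACAAUC, so short reads of one could be counted for the other. mmu-miR-219b-5p had 1 read in all, in control library b, and mmu-miR-219c-5p had 3 and 1 reads under CUMS and 0 in either control library. miR-3065-5p, which lies opposite mmu-miR-338-3p with an overlap of 21 bases, had 2 reads in CUMS library a and 0 in the other libraries. mmu-miR-219b-3p and mmu-miR-219c-3p each had an adjusted edgeR p of 0.931, and the other 3 were below the filter of that test.

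Other miRNAs studied in oligodendrocyte precursors or myelin did not share a direction. Of the 12 on this list, 11 passed the filter, 6 with a higher and 5 with a lower mean in CUMS, and none passed the edgeR test at an adjusted p under 0.05 or an unadjusted p under 0.05. Their median log2 ratio was 0.10, beside 0.021 over the 719 miRNAs. Without control library b, 5 were higher and 6 lower, with a median of -0.072 beside 0.020. miR-23a-3p, known for its effect on lamin B1 in myelinating cells, had means of 1049 ± 170 (SD, n = 2) in control and 1306 ± 294 (SD, n = 2) in CUMS, and the groups overlapped. miR-138-5p, which acts in early oligodendrocyte maturation, stood at 20719 and 27544 normalized reads in control, against 34005 and 23369.8 under CUMS, also with overlap. miR-125a-3p, which holds back the maturation of precursors, stood at 137 and 114 normalized reads in control, against 107 and 85.8 under CUMS. It was 1 of 2 miRNAs of the list with both CUMS libraries below both control libraries, and the other, miR-32-5p, had 3 to 17 reads. These 2 of 11 are near the 17.1% of the 719 miRNAs.

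Marker miRNAs of other cell types in the cortex were read beside the members. The oligodendrocyte list holds only the 4 abundant arms, without mmu-miR-219a-1-3p, and so repeats their values. Its sum was 8551 and 9238 normalized reads in control, against 6866 and 7983 under CUMS. All 4 of these arms had a lower mean in CUMS, and 3 did without control library b, where mmu-miR-338-5p turned to 0.023. All 5 neuronal miRNAs had a higher mean in CUMS, and 4 without control library b, where miR-137-3p turned, with sums of 834902 and 701070.4 in control, against 786246 and 942543 under CUMS. The sums overlapped, and miR-9-5p, which neural progenitors also make, gave 73.4% of them. miR-124-3p and miR-132-3p, an activity-dependent miRNA of neurons, were higher in both CUMS libraries, with log2 ratios of 0.40 and 0.28. They are 2 of the 5 neuronal miRNAs, and this order held for 16.7% of the 719 miRNAs. The groups overlapped for miR-128-3p, miR-9-5p and miR-137-3p.

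The list of choroid plexus and ependyma was lower in CUMS for all 4 of its miRNAs, and for 3 without control library b, where miR-449a-5p turned, with sums of 19823 and 25569.8 in control, against 17944 and 14628 under CUMS, and miR-204-5p gave 86.3% of them. miR-34c-5p, abundant in ciliated cells, stood at 2974 and 3523 normalized reads in control, against 2049.8 and 1992 under CUMS. Its unadjusted edgeR p was 0.00679 and its adjusted p 0.849. The microglia and leukocyte list, with a higher mean in CUMS for 2 of its 5 miRNAs, had sums of 4077 and 4774 in control, against 5388 and 3920.2 under CUMS, with 68.6% from miR-150-5p. The endothelial and mural list, higher for 2 of 4, had sums of 311305 and 222994, against 217675 and 308162, with 94.8% from miR-143-3p. The red cell list, higher for 3 of 3, had sums of 119742 and 115169, against 114587 and 135229.6, with 99.6% from miR-486a-5p. The counts of these 3 lists were the same without control library b.

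The olfactory and epithelial list set control library b apart, with 1004741 normalized reads against 4047 in control library a, 4936 in CUMS library a and 7329 in CUMS library b. Of its sum, 95.7% came from miR-182-5p, and miR-96-5p had 0 reads in control library a. All 7 of its miRNAs had lower means in CUMS, 6 of them with an unadjusted edgeR p under 0.05, against 4.17% of the 719 miRNAs. However, the sum of control library a was below those of both CUMS libraries. Without control library b, 5 of the 7 were higher in CUMS. miR-9-5p and miR-145a-5p each stood on 2 of the lists. None of these lists had a miRNA at 0 in all libraries or a miRNA past the adjusted threshold. The part of other cell types in the values of miR-219 and miR-338 was not tested.

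**Figure D5:**
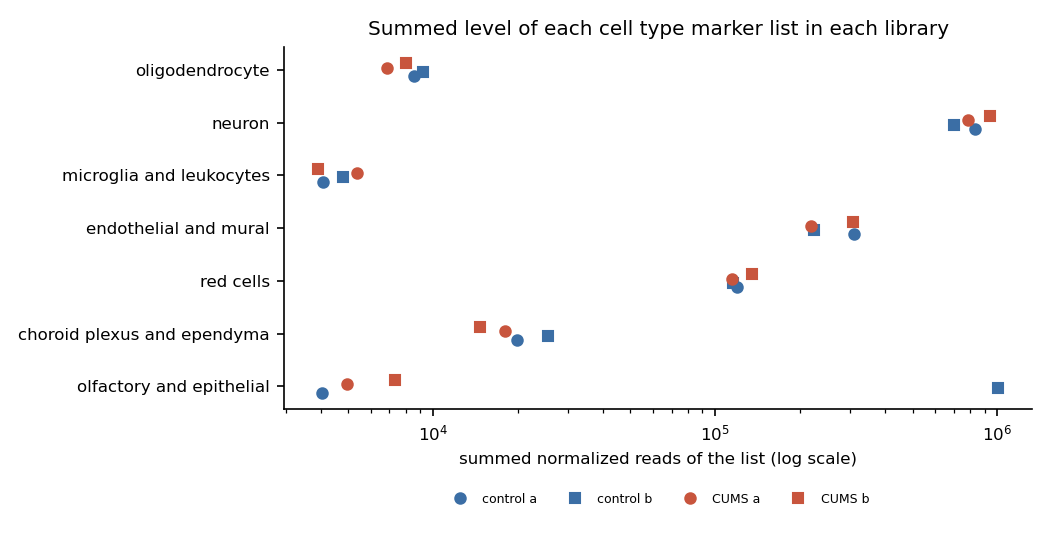
Summed normalized reads (x axis, log scale) of each list of marker miRNAs (y axis) in the control libraries (blue) and the CUMS libraries (red). The oligodendrocyte list is the sum of the 4 abundant arms themselves, at 6866 and 7983 under CUMS against 8551 and 9238. The choroid plexus and ependyma list is lower in both CUMS libraries, and control library b stands far from the rest in the olfactory and epithelial list.

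The profile of the summed arms over the 4 libraries was compared with that of each of the 282 abundant miRNAs, as the root mean square difference of centered log2 normalized reads. Outside the members, miR-99b-3p was the closest at 0.060, followed by miR-26b-5p at 0.072 and miR-322-5p at 0.086. miR-26b-5p stood at 3514 and 3358 normalized reads in control, against 2691 and 3277 under CUMS. Of the members, mmu-miR-338-3p and mmu-miR-219a-5p were at 0.040 and 0.057, mmu-miR-219a-2-3p was at 0.097, in place 7 and behind the 3 miRNAs above, and mmu-miR-338-5p was at 0.16, in place 58 of the 282. The sum contains these members, so their closeness to it is partly built in. With 4 libraries, such likeness is a description only.

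The seeds of mmu-miR-219a-5p, mmu-miR-219a-1-3p, mmu-miR-338-3p and mmu-miR-338-5p were searched in 3′ UTRs, since the messages themselves were not analysed here. The search used the longest annotated 3′ UTR of 10 genes studied as targets of these miRNAs (GENCODE M21). mmu-miR-219a-2-3p had no RefSeq mature sequence and was not searched. The 7 bases GACAATC, which pair with the seed of mmu-miR-219a-5p, were found in 6 of the 10 genes and in 4.80% of the 21020 genes with an annotated 3′ UTR. ATGCTGG, which pairs with the seed of mmu-miR-338-3p, was found in 4 of the 10 and in 13.1% of all. ATATTGT, for mmu-miR-338-5p, was found in 3 of the 10 and in 13.1% of all, and GCAACTC, for mmu-miR-219a-1-3p, in 0 of the 10 and in 5.11% of all. The 10 genes include long 3′ UTRs, such as 6046 bases in Sox6 against a median of 961 over all genes, and long ones hold more matches of any kind. The 10 genes were chosen as studied targets of these miRNAs, so their counts beside the shares over all genes are a description only. A match is a run of letters and not a measured site.

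For 4 genes known from precursor cells, a selection of the matches is given, chosen after all were seen, among those of mmu-miR-219a-5p and mmu-miR-338-3p that are followed by an A. The paired bases are in capitals, and the positions are those of these bases. Sox6 keeps precursors immature, and both Sox6 and Elovl7 had matches to 3 of the arms searched.
Pdgfra, mmu-miR-219a-5p, plus strand of chr5:75197713-75197719: tatttttatgatGACAATCaaagcttgccc
Sox6, mmu-miR-219a-5p, minus strand of chr7:115474015-115474021: ggaatggagaatGACAATCacagagatcac
Sox6, mmu-miR-338-3p, minus strand of chr7:115471792-115471798: caactcactgacATGCTGGactgacatgct
Foxj3, mmu-miR-219a-5p, plus strand of chr4:119627296-119627302: tttacagacaaaGACAATCagaagcattgg
Zbtb18, mmu-miR-219a-5p, plus strand of chr1:177450506-177450512: taatctagaggaGACAATCaatgtctgtgg
Zbtb18, mmu-miR-338-3p, plus strand of chr1:177449158-177449164: aaaatttctgaaATGCTGGattatctattt
Sox6 had 2 matches to mmu-miR-219a-5p and 3 to mmu-miR-338-3p, and Zbtb18 had 2 and 1. Pdgfra had 1 match to mmu-miR-219a-5p, and Foxj3 had 2 to mmu-miR-219a-5p and 1 to mmu-miR-338-5p. Sox6 also had 3 matches to mmu-miR-338-5p. Elovl7, a fatty acid elongase, had 1 match to each of mmu-miR-219a-5p, mmu-miR-338-3p and mmu-miR-338-5p. Etv5 had 1 to mmu-miR-219a-5p and Neurod1 had 1 to mmu-miR-338-3p, while no match to these seeds was found in the searched window of Lingo1, Hes5 or Isl2.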

How the data were processed

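Small RNA of 18 to 30 nt was sequenced in 2 control and 2 CUMS libraries. The authors matched clean reads to mouse miRNA precursors of miRBase without mismatch and counted them per mature miRNA. Per the labels, Bowtie, DESeq and mm10 were used, and their versions for the miRNA step are not given in the sources used here. The signal that the authors deposited is, for each group, the mean of normalized counts, in which DESeq had divided the reads of a library by its size factor. The other columns hold the overall mean, fold change, log2 fold change, p and adjusted p of the authors and were not used. The columns carry no group names and were assigned from the text of the study.

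A group mean is a sum of whole reads of 2 libraries, each times its own step. With 2 steps for each group, 1038 of 1038 values (100%) came out whole in both groups, at a relative tolerance of 1e-09, and for 2 control values another pair was as near. Size factors computed from the recovered reads over 650 miRNAs equaled those in the steps. The main value of each member is the log2 ratio of the deposited means, with no test. The count test on recovered reads is an alternative. It used edgeR 4.0.16 (quasi-likelihood, TMM, at least 5 reads in at least 1 library, group only) and DESeq2 1.42.0 in R 4.3.3. Benjamini-Hochberg adjustment was over the miRNAs tested. The count test was tried on simulated data with larger differences than those of the arms. Its power for differences of their size was not tested. Means and SDs are over normalized reads. Ratios, shares and exact tests were made in Python 3.11.15 (scipy 1.17.1, pandas 2.3.3, numpy 2.4.6) and plots with matplotlib 3.10.9. The authors isolated RNA per mouse, but the text of the study does not state how many mice went into a library. The p-values measure only the spread between these libraries. Sequences are from RefSeq (GRCm38.p6) and genes and 3′ UTRs from GENCODE M21 (GRCm38).

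Named miRNAs were the members, the arms opposite to them, the fixed lists, the 3 closest profiles and 2 neighbors in level above and below each abundant arm. The members and lists were chosen with earlier results of these data known. Alternatives were other scalings, a pseudocount of 1, other filters and leaving out each library. The mRNA libraries were not analysed here.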

Additional observations from a re-analysis of the deposited data

How the results depend on the processing

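Under 6 other scalings and pseudocounts, the log2 ratios stayed between -0.25 and -0.13 for miR-338-3p, -0.39 and -0.28 for miR-219a-2-3p, -0.22 and -0.11 for miR-338-5p, -0.24 and -0.13 for miR-219a-5p, and 0.074 and 0.19 for miR-219a-1-3p, the lone arm with a higher mean in CUMS in each. Leaving out each library gave -0.29 to -0.13, -0.57 to -0.16, -0.37 to 0.023, -0.36 to -0.065 and -0.35 to 0.47. The sign of miR-338-5p turned without control library b, though not in edgeR (-0.0021), and that of miR-219a-1-3p without control library a or CUMS library b. On the deposited scale, the number of arms with a higher mean thus ran from 0 to 2.

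The number of called miRNAs was 0 in edgeR, DESeq2 (24 at an unadjusted p under 0.05), edgeR with DESeq2 size factors (32), without a filter (41) and with at least 10 reads in 2 libraries (35), and 0 to 12 with each library left out. The 12, none a member, came without control library a, which leaves control library b alone in its group, and a lone library is assumed to vary like the other group. Without CUMS library b, miR-219a-2-3p had an unadjusted p of 0.0285, as 1 of 20 of 691 miRNAs under 0.05, and an adjusted p of 0.786. The ratios between arms kept their direction except miR-338-3p over miR-338-5p, with log2 differences from -0.17 to 0.10. With each library left out, miR-219a-2-3p over miR-219a-1-3p ran from -0.64 to -0.23, over miR-219a-5p from -0.22 to -0.10, and miR-338-3p over miR-219a-2-3p from 0.029 to 0.29. The log2 ratio of the mean summed share was -0.18, -0.27 without the 10 most abundant miRNAs and the clusters, and -0.27 to -0.099 with each library left out, a choice made after seeing the data. The list counts without control library b were also chosen after seeing the data, and 4 of 8 lists changed by 1 miRNA and the olfactory and epithelial list by 5.

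No paired analysis was possible because the recovered libraries carry no replicate numbers. The labels number the libraries within each group, and nothing in the sources used here ties a shared number to a pair. Whether any pairing applies is therefore unknown, and neither of the 2 possible pairings was fitted. With 28 to 44 reads, miR-219a-1-3p has a large counting error.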
